A study of Mus musculus with 5 samples.

Results

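Phosphofructokinase and its opponent fructose bisphosphatase stand at the step that commits sugar to glycolysis, and 9 genes of that step were followed here in MIN6 cells, an insulinoma line of the mouse that serves as a beta cell model. The members are the phosphofructokinase isoform genes Pfkl, Pfkm and Pfkp, the Pfkfb1 to Pfkfb4 genes of the bifunctional regulators, and the fructose bisphosphatase genes Fbp1 and Fbp2. Their probes were taken by the gene name that the array tables give to each probe, without use of measured values. The genes themselves were chosen with earlier results of these data known. All 9 were found, with 12 of the 39429 probes on the array that are not controls, and each probe's transcript accession led to the same symbol in RefSeq. EXO-HP cells (3 arrays) had received exosomes, small vesicles that cells release, that ex vivo muscle of high fat diet mice had shed, and EXO-STD cells (2 arrays) had received those from muscle of standard diet mice. No array of cells without vesicles was used here, so every comparison is between vesicles from mice on either diet. The samples are titled biological replicates, but separate cultures or separate mice are not stated, so the p-values cover the spread among these 5 samples alone, and that spread may be technical.

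Phosphofructokinase adds the second phosphate to the sugar and works as a tetramer that Pfkl, Pfkm and Pfkp subunits can share. Its strongest activator is a second fructose bisphosphate, which serves as a signal rather than a fuel and which the bifunctional PFKFB enzymes both make and remove. Fructose bisphosphatase runs the committed step backwards in gluconeogenesis. In beta cells this step lies between glucose phosphorylation and the ATP rise that triggers insulin release, and the muscle isoform of phosphofructokinase is known for its part in the glycolytic oscillations of islets.

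The arrays carry 60-base probes. Pfkl, Pfkm, Pfkfb1, Pfkfb2, Fbp1 and Fbp2 have a single probe each, while Pfkp, Pfkfb3 and Pfkfb4 have 2 probes each that lie far apart on the transcript. The sequences of 4 probes are shown because agreement between probes bears on the results. The probes of Pfkp, Pfkfb3 and Fbp2 shown here cover 2155, 1414 and 4516 bases of the genome with their 60 bases and so lie across a gap in the genome, as a probe over an exon junction does. Those of Pfkp and Pfkfb3 are called junction probes below, although exon positions were not looked up. The probe of Pfkfb4 shown is the member probe that gave no signal above background.
Pfkp probe A_51_P378856: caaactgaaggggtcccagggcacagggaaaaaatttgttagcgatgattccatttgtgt
Pfkfb3 probe A_52_P362917: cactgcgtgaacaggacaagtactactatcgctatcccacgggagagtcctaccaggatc
Pfkfb4 probe A_55_P2119332: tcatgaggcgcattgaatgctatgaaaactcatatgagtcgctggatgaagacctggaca
Fbp2 probe A_51_P499020: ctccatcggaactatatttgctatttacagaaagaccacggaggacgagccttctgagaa
In the mm9 build these lie at chr13:6581718-6583872 (minus strand), chr2:11404189-11405602 (minus strand), chr9:108910455-108910514 (plus strand) and chr13:62950852-62955367 (minus strand).

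Every member gene was detected in MIN6 cells. Over all probes with a usable spot, 26951 of 39319 were well above background on all 5 arrays, 3 of EXO-HP and 2 of EXO-STD. So were 11 of the 12 member probes, and these 11 were tested. The muscle isoform genes Pfkm and Fbp2 were thus detected beside the liver-type genes Pfkl, Pfkfb1 and Fbp1. Probes differ in how brightly they bind, so the order of the isoforms by level cannot be read from these arrays, and each probe is compared only with itself. All 12 beta cell markers looked at, Ins1, Ins2 and Pdx1 among them, were well above background on all 5 arrays. By the same call so were 4 of 5 hepatocyte markers and all 4 macrophage markers, so detection does not tell which kind of cell was present. The glucagon gene Gcg, an alpha cell marker, was detected on all 5 arrays as well. Its normalised log2 signals were 5.02, 5.52 and 5.43 in EXO-HP, against 5.36 and 5.25 in EXO-STD.

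No member was called different between the groups. With limma and Benjamini-Hochberg adjustment over all 31943 tested probes, 0 of the 11 member probes passed an adjusted p of 0.05, as did 0 of all tested probes (0%), and the members' adjusted p ran from 0.89 to 1. At an unadjusted limma p under 0.05 there was 1 member probe, that of Pfkfb3 near the transcript end, against 5.6% of all tested probes in either direction and 0.238% in the lower direction. Of the 11 probes, 7 had a lower mean in EXO-HP and 4 a higher one, with a median log2 fold change of -0.22. Over all tested probes the median was 0.07 and 37.2% were lower. The EXO-HP arrays all lay below both EXO-STD arrays for 2 member probes, against 2.76% of all probes, and all above them for 1, against 15.1%. In these samples of whole cultures, fewer cells of a kind and less RNA per cell cannot be told apart.

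**Figure D1:**
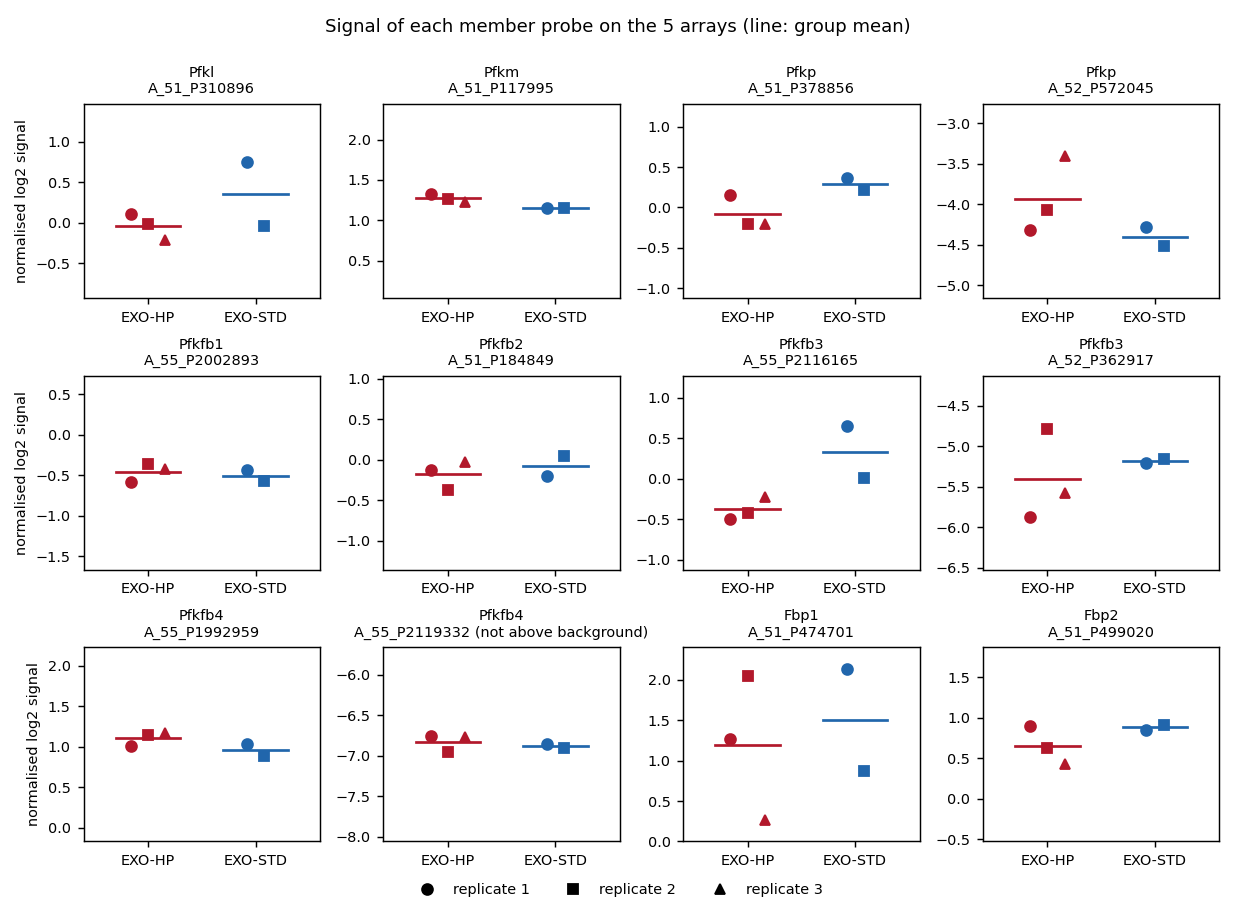
Normalised log2 signal of the 12 member probes on each array, EXO-HP (red, 3 arrays) left of EXO-STD (blue, 2 arrays), with lines at the group means and a y axis of the same length in every panel. A value of 0 is the array's 75th percentile. Fbp1 spreads over 1.86 units within and between the groups, while the 5 values of Pfkm lie within 0.18.

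The arrays lay on 2 slides, scanned separately: EXO-HP replicate 1 shared slide 1 with both EXO-STD arrays, and EXO-HP replicates 2 and 3 were on slide 2. More spots were well above background on slide 2 (91.6% and 81.6%) than on slide 1, where EXO-HP replicate 1 had 74% and the EXO-STD arrays had 73.4% and 71.8%. A fit with slide as a block therefore compares EXO-HP replicate 1 with the EXO-STD arrays. Scaling by the median in place of the 75th percentile moved the median of all probes to -0.10 from 0.07, and member values are read against that shift. With that scaling 10 of the 11 member probes and 64.2% of all probes were lower in EXO-HP. Quantile normalisation gave 7 of 11 and 53.2%, and the deposited table gave 8 of 11 and 54.5%.

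Among the phosphofructokinase isoforms, Pfkl, the liver type, had normalised log2 signals of 0.11, -0.01 and -0.21 in EXO-HP, against 0.75 and -0.04 in EXO-STD. Only EXO-STD replicate 1 stood apart from the other 4 arrays, and the groups overlapped. The log2 fold change was -0.39 ± 0.29 (SE), a 1.31-fold lower mean (95% interval -1.12 to 0.34 in log2 units, limma adjusted p = 1). Leaving out EXO-STD replicate 1 gave 0.00, whereas leaving out EXO-STD replicate 2 gave -0.78, with an unadjusted limma p under 0.05. With slide as a block it was -0.24. Its probe lies at chr10:77450926-77450985 (mm9, minus strand).

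Pfkm, the muscle type and the form that a beta cell shares with contracting fibres, had 1.33, 1.27 and 1.23 in EXO-HP, against 1.15 and 1.15 in EXO-STD. All 3 EXO-HP arrays lay above both EXO-STD arrays, by amounts that were small. The log2 fold change was 0.12 ± 0.18 (SE), with a 95% interval from -0.33 to 0.58 (limma adjusted p = 1), and it was -0.05 with median scaling.

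The probe of Pfkm, at chr15:97962713-97962772 (mm9, plus strand), is printed 10 times on each array, which gives a view of the technical spread. The 10 spots ranged from 1.22 to 1.41, from 1.20 to 1.32 and from 1.11 to 1.38 on EXO-HP replicates 1, 2 and 3, and from 0.99 to 1.39 and from 1.06 to 1.23 on EXO-STD replicates 1 and 2. The spots of the 2 groups overlapped although the array means did not. The pooled SD of single spots on an array was 0.08. The SD of the 3 EXO-HP array means, each over 10 spots, was 0.05, and these SDs are of different quantities. The other tested members have a single spot per array, so for them no such spread can be given.

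**Figure D2:**
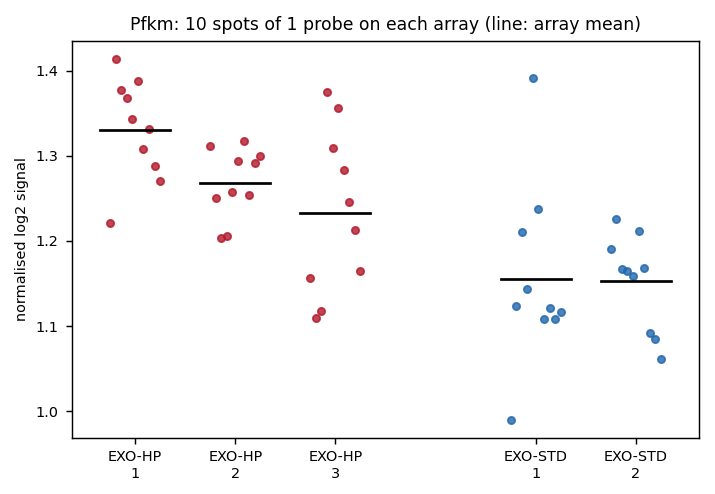
Normalised log2 signal of the 10 Pfkm spots on each array, EXO-HP (red) left of EXO-STD (blue), with black lines at the array means. The spots spread over 0.11 to 0.40 on an array, and the lowest EXO-HP spot (1.11) lies below the highest EXO-STD spot (1.39).

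Skeletal muscle markers are given because Pfkm and Fbp2 are muscle genes and the vesicles came from muscle. All 10 tested markers of 12 had a higher mean in EXO-HP, with a median log2 fold change of 0.71, against 16123 of 25863 genes with a higher mean and a median of 0.07. None passed the adjusted threshold, and 2 had an unadjusted limma p under 0.05, where 5.36% of all probes were higher at that p. Summed over the probes of the 12 genes, their signal was 1.36, 0.80 and 0.41 on EXO-HP replicates 1, 2 and 3, against 0.50 and 0.12 on EXO-STD replicates 1 and 2 (log2 of the sum of normalised signals). Of the 12, 7 were well above background on all 5 arrays, and each was so on at least 1 array. Several of these probes were dim. The EXO-STD means were -6.66 for Mylpf, -6.98 for Myoz1 and -6 for Ckm, against -6.88 for the undetected Pfkfb4 probe. The log2 fold changes of these markers were 1.1, 1.37 and 0.03. Those of the brightest tested markers, Atp2a1, Pvalb and Tnnc2, were 0.51, 0.05 and 0.28. The median of 0.71 was not compared with genes of similar signal, so a rise of muscle transcripts cannot be read from it. The part of the muscle markers in the Pfkm and Fbp2 values was not tested.

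Pfkp, the platelet type, was read by probes that went opposite ways. The junction probe had 0.16, -0.21 and -0.21 in EXO-HP, against 0.37 and 0.21 in EXO-STD. All EXO-HP arrays lay below both EXO-STD arrays, the first of them by little. The junction probe's log2 fold change was -0.37 ± 0.22 (SE), a 1.30-fold lower mean (95% interval -0.92 to 0.17, limma adjusted p = 0.987). With slide as a block it was -0.12: EXO-HP replicates 2 and 3 on slide 2 stood 0.50 below the EXO-STD mean and EXO-HP replicate 1 on slide 1 stood 0.12 below it.

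The other Pfkp probe, at chr13:6579124-6579183 (mm9, minus strand) and base 3922 of the transcript against 2138 for the junction probe, had -4.32, -4.07 and -3.40 in EXO-HP, against -4.28 and -4.52 in EXO-STD. EXO-HP replicate 3 was the highest and replicate 1 lay between the EXO-STD arrays. The change of this probe was 0.47 ± 0.32 (SE, limma adjusted p = 1), and the change of the junction probe minus that of this one was -0.85. Its change was 0.21 without EXO-HP replicate 3 and 0.08 with slide as a block. Quantile normalisation gave 0.19, and normexp background correction followed by quantile normalisation gave 0.07. The Pfkp probes thus give no common direction.

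Among the bifunctional regulators, Pfkfb3 had the largest difference of the members. It is the form with the highest ratio of kinase to phosphatase activity, is known to be induced by low oxygen, and favours glycolysis when it is abundant. Its probe near the transcript end (base 4540, chr2:11393453-11393512 in mm9, minus strand) had -0.50, -0.42 and -0.22 in EXO-HP, against 0.65 and 0.01 in EXO-STD. All 3 EXO-HP arrays lay below both EXO-STD arrays, and the EXO-STD arrays lay further from each other than EXO-HP replicate 3 lay from EXO-STD replicate 2. The log2 fold change was -0.71 ± 0.26 (SE), a 1.63-fold lower mean, with a 95% interval from -1.36 to -0.05 (limma adjusted p = 0.89).

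The size of the Pfkfb3 difference depended on which EXO-STD array was kept. It was -0.39 without EXO-STD replicate 1 and -1.03 without EXO-STD replicate 2, and it stayed between -0.79 and -0.65 when an EXO-HP array was left out. With slide as a block it was -0.82, with quantile normalisation -0.71, and with normexp followed by quantile normalisation -0.69. It was below 0 in all 14 alternatives, with a limma adjusted p of at least 0.655. Because all EXO-HP arrays lay below both EXO-STD arrays, leaving out an array or changing the filter could not alter that sign. Those alternatives therefore do not add to the evidence for the direction.

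The other Pfkfb3 probe, the junction probe at base 1403, had -5.87, -4.78 and -5.57 in EXO-HP, against -5.21 and -5.16 in EXO-STD. EXO-HP replicate 2 was the highest array and EXO-HP replicate 1 the lowest. The log2 fold change was -0.22 ± 0.36 (SE, 95% interval -1.10 to 0.67, limma adjusted p = 1). Quantile normalisation gave -0.60, slide as a block -0.68, and leaving out EXO-HP replicate 1 gave 0.01. Processed signals of this probe ran from 29 to 83, against 1200 to 3017 for the other probe.

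Pfkfb4, the testis type, which is also known to respond to low oxygen, had a small difference of the other sign. Its detected probe (base 3273, chr9:108934652-108934711 in mm9, plus strand) had 1.01, 1.14 and 1.17 in EXO-HP, against 1.04 and 0.89 in EXO-STD. The groups overlapped, and the log2 fold change was 0.14 ± 0.19 (SE, 95% interval -0.33 to 0.62, limma adjusted p = 1). It was 0.04 with slide as a block and -0.04 with median scaling. The second probe, at base 685, was not well above background on any of the 5 arrays, and no fold is given for it. Detection of Pfkfb4 therefore rests on the probe near the transcript end.

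Pfkfb1, the liver and muscle type, had -0.58, -0.36 and -0.43 in EXO-HP, against -0.44 and -0.57 in EXO-STD, which overlapped fully. The difference in log2 units was 0.05 ± 0.19 (SE, 95% interval -0.44 to 0.53) and took either sign under other scalings. Pfkfb2, the heart type, which is also an islet form, had -0.13, -0.37 and -0.03 in EXO-HP, against -0.20 and 0.05 in EXO-STD. The difference for Pfkfb2 was -0.10 ± 0.21 (SE, 95% interval -0.64 to 0.43), and no array stood apart. Their probes lie at chrX:147078320-147078379 (plus strand) and chr1:132586122-132586181 (minus strand) in mm9.

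**Figure D3:**
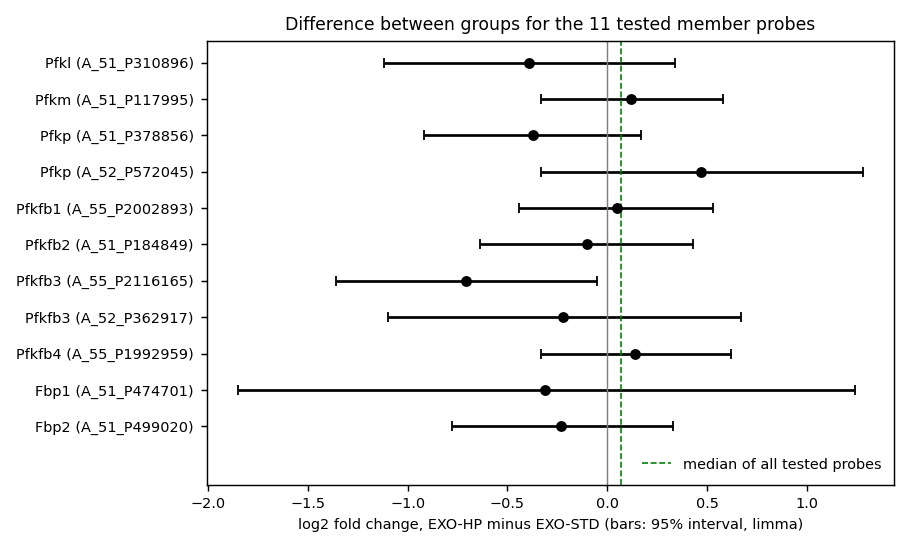
Log2 fold change (EXO-HP minus EXO-STD) of the 11 tested member probes, with bars for limma's 95% interval, a solid line at 0 and a dashed line at the median of all tested probes (0.07). The interval of the Pfkfb3 probe near the transcript end (-1.36 to -0.05) is the only one of the 11 that leaves out 0, before adjustment for the number of probes.

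Fbp1, the liver and kidney fructose bisphosphatase, varied most among the members and did so within the groups. It had 1.27, 2.04 and 0.27 in EXO-HP, against 2.13 and 0.87 in EXO-STD. EXO-HP replicate 2 and EXO-STD replicate 1 were high, EXO-HP replicate 3 was the lowest, and the range over the 5 arrays was 1.86. The SD was 0.89 in EXO-HP and 0.90 in EXO-STD, and the log2 fold change of -0.31 ± 0.62 (SE, 95% interval -1.85 to 1.24) was smaller than that spread. Leaving out EXO-STD replicate 1 turned it to 0.33, and leaving out replicate 2 gave -0.94. Markers of hepatocytes, summed over 5 genes, were at 2.55, 2.92 and 2.51 on EXO-HP replicates 1, 2 and 3, against 3.07 and 2.47 on EXO-STD replicates 1 and 2 (log2 of the sum of normalised signals), with 4 of the 5 well above background on all arrays. The summed markers of macrophages, 4 genes that were all detected, were at 0.51, 1.23 and 0.53 in EXO-HP, against 1.02 and -0.04 in EXO-STD. Both sums were highest on the arrays where Fbp1 was high, and each was carried by 1 gene, Serpina1a for hepatocytes and Csf1r for macrophages. Other markers were ordered otherwise: Tat was lowest on EXO-HP replicate 2 and Ptprc and Cd68 were lowest on EXO-STD replicate 1. Their part in the Fbp1 values was not tested. The Fbp1 probe lies at chr13:62966175-62966234 (mm9, minus strand).

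Among 21731 other genes well above background on all 5 arrays, the genes whose centred values over the 5 arrays lay nearest to those of Fbp1 were Polr2g, Gm4853, Rplp1, Khk and Gm7283. Their root mean square distances were 0.106, 0.123, 0.163, 0.168 and 0.169 in log2 units, against a median of 0.73 over all these genes. They were picked as the nearest of many genes on only 5 arrays, so the gap to that median follows from the choice. Khk encodes ketohexokinase, which brings dietary fructose into metabolism. Polr2g encodes a subunit of RNA polymerase II and Rplp1 a ribosomal stalk protein, while RefSeq lists Gm4853 and Gm7283 as pseudogenes, so their probes may also read other transcripts. Khk had 0.40, 0.84 and -0.82 in EXO-HP, against 0.97 and 0.10 in EXO-STD, so that it was high and low on the same arrays as Fbp1. With quantile normalisation of the same signals the distance of Khk was 0.144 and those of the other 4 rose to between 0.226 and 0.363.

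**Figure D4:**
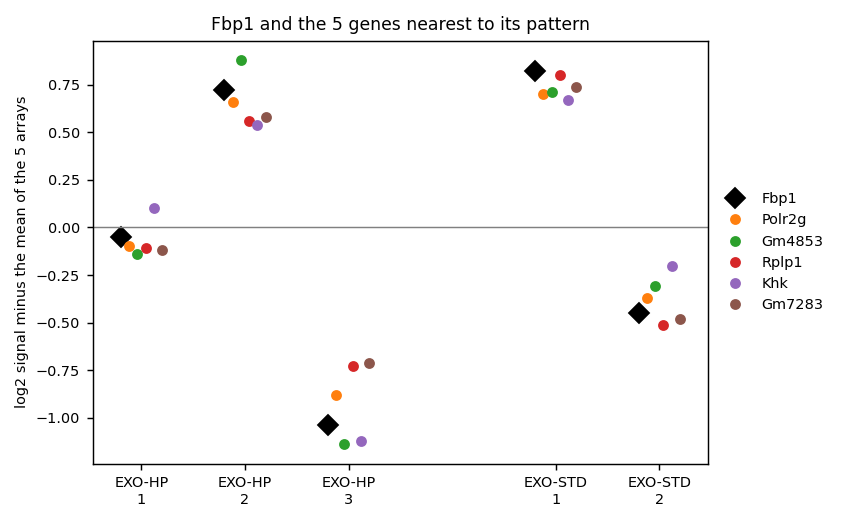
Log2 signal minus the mean of the 5 arrays for Fbp1 (black diamonds) and the 5 genes nearest to its pattern (circles), with the EXO-HP arrays left of the EXO-STD arrays. All 6 genes are high on EXO-HP replicate 2 and EXO-STD replicate 1 and lowest on EXO-HP replicate 3.

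Fbp2, the muscle fructose bisphosphatase, had 0.90, 0.63 and 0.43 in EXO-HP, against 0.85 and 0.91 in EXO-STD. EXO-HP replicate 1, on the slide of the EXO-STD arrays, lay between them, and the pair on slide 2 lay below. The log2 fold change was -0.23 ± 0.22 (SE, 95% interval -0.78 to 0.33, limma adjusted p = 1), and with slide as a block it was 0.02. RefSeq lists each of the names Fbp1 and Fbp2 among the older names of the other gene, and here each probe is assigned by its transcript accession.

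**Figure D5:**
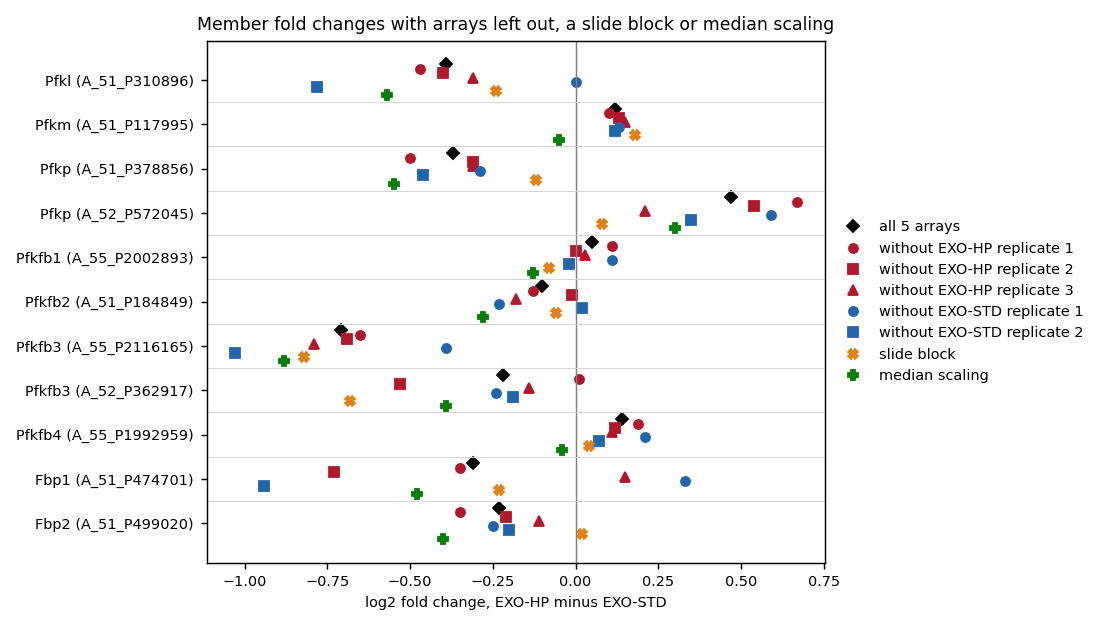
Log2 fold change (EXO-HP minus EXO-STD) of the 11 tested member probes with all 5 arrays, with each array left out, with slide as a block and with median scaling. The value of Pfkl, Fbp1 and Pfkfb3 depends on which EXO-STD array is kept: Pfkl has 0.00 without EXO-STD replicate 1 and -0.78 without EXO-STD replicate 2.

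The other glycolytic enzymes had a median change near 0 with the 75th percentile scaling. Of 17 tested genes of 19, 9 were lower and 8 higher in EXO-HP (15 lower with median scaling), with a median log2 fold change of -0.07 against 0.07 for all 25863 genes, and 0 passed the adjusted threshold or an unadjusted limma p under 0.05. The smallest p belonged to Pklr, the liver and red cell pyruvate kinase, at 0.40 ± 0.24 (SE), Aldoa, the aldolase that splits the product of phosphofructokinase, at -0.51 ± 0.32, and Hk3, a hexokinase, at 0.50 ± 0.33. With slide as a block these were 0.08, -0.63 and 0.13. Aldoa had 4.77, 5.20 and 4.70 in EXO-HP, against 5.80 and 5.0 in EXO-STD, with EXO-STD replicate 1 the highest, as for Pfkl and Pfkfb3. Relative to the EXO-STD mean the list's median was -0.08, -0.04 and -0.25 on EXO-HP replicates 1, 2 and 3, against 0.18 and -0.18 on EXO-STD replicates 1 and 2.

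Of the 7 tested genes of gluconeogenesis and fructose entry, 5 were lower and 2 higher, with a median of -0.02 and 0 past the adjusted threshold or an unadjusted limma p under 0.05. Pcx, pyruvate carboxylase, had 0.24 ± 0.21 (SE), Khk -0.39 ± 0.56 and G6pc3, the widely expressed glucose phosphatase, 0.14 ± 0.22. With slide as a block these were 0.04, -0.13 and -0.04. The number of the 7 that were lower was 3 with quantile normalisation and 1 without EXO-STD replicate 1. Of 10 tested regulators of the members, 6 were lower and 4 higher, with a median of -0.02 and likewise 0 past either threshold. Gckr, the glucokinase regulator that binds fructose phosphates, had -0.27 ± 0.28 (SE). Prkaa2, a catalytic subunit of the AMP-activated kinase that phosphorylates PFKFB enzymes, had 0.20 ± 0.23, or 0.02 with slide as a block. The gene listed as 9630033F20Rik, now Tigar, whose product removes the phosphofructokinase activator, had -0.14 ± 0.18.

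The genes known to be induced by low oxygen, the class to which Pfkfb3 and Pfkfb4 belong, had mostly lower means in EXO-HP. Of 15 tested genes of 16, 12 had a lower mean, with a median log2 fold change of -0.39, against 37.7% of all genes and their median of 0.07. That median became -0.21 with EXO-STD replicate 1 left out and -0.59 with EXO-STD replicate 2 left out. The background share depended on the scaling. With quantile normalisation 12 genes were lower (median -0.48), against 53.2% of all probes. Median scaling gave 13 (-0.56) against 64.2%, and the deposited table gave 13 (-0.43) against 54.5%. With the percentile scaling none passed the adjusted threshold, and 4 had an unadjusted limma p under 0.05, all lower. At that p 0.238% of all probes were lower and 5.36% higher, and both shares are given for that scaling only. Bnip3, a mitochondrial protein of mitophagy, had -0.92 ± 0.27 (SE), Ldha, which turns pyruvate into lactate, -1.88 ± 0.61 and the lactate exporter Slc16a3 -1.28 ± 0.42. Leaving out EXO-STD replicate 1 gave -0.56, -0.95 and -0.68, none with an unadjusted limma p under 0.05, and leaving out EXO-STD replicate 2 gave -1.28, -2.80 and -1.87. The list's median relative to the EXO-STD mean was -0.38, -0.36 and -0.65 on EXO-HP replicates 1, 2 and 3, against 0.30 and -0.30 on EXO-STD replicates 1 and 2. The Pfkfb3 probe near the transcript end stood at -0.82, -0.75 and -0.55 on the same EXO-HP arrays, against 0.32 and -0.32 on the EXO-STD arrays. For Pfkl these values were -0.24, -0.37 and -0.56, against 0.39 and -0.39.

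The promoters of Pfkl and of Pfkfb3 are shown because Pfkl and the Pfkfb3 probe near the transcript end were highest on EXO-STD replicate 1. The median of the genes induced by low oxygen was also highest there. So were Fbp1 (2.13) and the junction probe of Pfkp (0.37), whose promoters are not shown. Capitals mark ACGTG or GCGTG on either strand, the letters at the core of the element that hypoxia-inducible factors bind. A CACGTG run counts as a match on each strand. Each sequence is the 250 bases before a RefSeq gene start on GRCm38.p6, at chr10:78009808-78010057 for Pfkl and chr2:11502091-11502340 for the downstream start of Pfkfb3, both on the minus strand.
Pfkl: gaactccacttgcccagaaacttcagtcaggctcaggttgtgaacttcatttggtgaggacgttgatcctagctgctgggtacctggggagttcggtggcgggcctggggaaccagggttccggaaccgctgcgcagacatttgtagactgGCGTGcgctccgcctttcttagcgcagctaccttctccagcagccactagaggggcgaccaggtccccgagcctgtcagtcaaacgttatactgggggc
Pfkfb3: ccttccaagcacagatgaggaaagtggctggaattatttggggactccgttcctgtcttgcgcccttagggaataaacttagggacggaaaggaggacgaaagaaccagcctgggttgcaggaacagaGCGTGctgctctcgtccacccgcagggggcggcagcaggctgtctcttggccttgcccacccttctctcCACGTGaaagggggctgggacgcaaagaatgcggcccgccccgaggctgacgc
Pfkl holds a match 99 bases before its start. Pfkfb3 holds a match 122 bases before its start and a CACGTG whose matches begin 53 and 52 bases before it, and the window of its upstream start holds 1 match. The Pfkp window held 3 matches and the Fbp1 window held 0. Over the members, 13 of 18 such windows and 8 of 9 genes held a match, Fbp1 being the exception, against 38.6% of 32851 windows and 41.5% of genes with a window in the RefSeq table. A gene with more windows has more chances to hold a match. Pfkm and Pfkfb1 have 4 windows each, while the 32851 windows of the background belong to 27025 genes, so the shares of genes are not on an equal footing. Some windows of Pfkm and of Pfkfb2 overlap, and a match says nothing about binding in these cells.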

How the data were processed

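Cy3-labelled cRNA from 5 MIN6 samples, made from 0.1 µg of RNA per the labels, was hybridised to 1-colour Agilent mouse arrays, 1 array per sample. Per the file headers, the authors' intensity values come from version 10.7.3.1 of Feature Extraction, while the submitters' processing notes name version 9.1 and limma. The deposited processed intensity is background-subtracted and detrended, with surrogates for spots not above background and no scaling between arrays. The deposited value table holds log2 values of the same arrays with 1 common distribution (median 7.93 in each column). Its ranks equalled those of mean signal minus local background (Spearman's rho 1).

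Spots marked as outliers were dropped, log2 processed signals of a probe's spots were averaged, and arrays were scaled to their 75th percentile, which is 0 on the normalised scale. Only probes that 2 or more arrays of a group measured well above background were tested, 31943 of 39429 (7376 were dim and 110 had no usable spot), and no spot was saturated. EXO-HP minus EXO-STD was fitted with limma 3.58.1 in R 4.3.3 (lmFit, eBayes, 3 residual degrees of freedom), p-values were Benjamini-Hochberg adjusted over all tested probes, and the threshold was adjusted p 0.05. The median SE was 0.27 over all probes, and precision is limited by having 5 arrays. With 3 and 2 arrays the smallest 2-sided exact permutation p is 0.2, so none was run. The fit was tested on simulated data.

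For genes with several probes in lists, the tested probe with the highest mean signal stands for the gene. All members and, of each list, the 3 genes with the smallest p are named, as are the 5 genes nearest to the pattern of the member with the largest range. The members and lists were chosen with earlier results of these data known, so their counts are descriptions. Alternatives were other scalings, normexp (offset 50) followed by quantile normalisation, the deposited table, other filters, slide and replicate blocks, and each array left out. Positions of probes come from the deposited array tables (mm9).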

Additional observations from a re-analysis of the deposited data

How the results depend on the processing

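No member probe passed adjusted p 0.05 under any of the 14 alternatives. Over all tested probes there were 0 calls except without EXO-STD replicate 1, where limma called 3 (range 0 to 3 with an array left out). These were Btbd10 (9.41), Polr1e (7.10) and LOC100048394 (6.62), named after their values were seen, and that fit assumes that the lone EXO-STD array varies like the others. Probes with an unadjusted p under 0.05 numbered 1788 with all arrays, 490 with normexp and quantile normalisation together, 631 in the deposited table, 843 with slide as a block, 868 with quantile normalisation, 1079 among probes well above background on all 5 arrays and 2267 with slide as a random block. With an array left out they ranged from 950 to 3411.

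Directions changed for small values, and also for some larger ones such as Fbp1 (-0.31 with all 5 arrays), Khk (-0.39) and Gckr (-0.27). With median scaling Pfkm had -0.05, Pfkfb1 -0.13, Pfkfb4 -0.04 and G6pc3 -0.03, and the median of the other glycolytic enzymes was -0.25. Pfkfb1 had -0.05 with normexp and quantile normalisation and in the deposited table, and Prkaa2 had -0.06 and -0.09 there and -0.18 with quantile normalisation alone. With slide as a block Pfkfb1 had -0.08, Fbp2 0.02 and G6pc3 -0.04. With an array left out, Pfkfb3 at the junction probe ranged from -0.53 to 0.01, Fbp1 from -0.94 to 0.33, Pfkfb1 from -0.02 to 0.11, Pfkfb2 from -0.23 to 0.02, Khk from -0.83 to 0.09 (0.05 without EXO-STD replicate 1), Prkaa2 from -0.02 to 0.41, Gckr from -0.65 to 0.11, and the glycolytic median from -0.38 to 0.04. Causes were not tested.

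Replicate numbers did not pair the samples: deviations of same-numbered arrays correlated at 0.02 and -0.06. With a replicate block, 0 probes were called, 1649 had an unadjusted p under 0.05, Fbp1 had 0.15 and Khk 0.09. Dim probes limit what can be read from the junction probe of Pfkfb3 and the end probe of Pfkp. Distances from Fbp1 under other scalings were an alternative chosen after seeing the data.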
